A study of Mus musculus with 6 samples.

Results

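The genes described here are the numbered Zfp genes of the mouse that were expressed in cultured ADSCs. They were chosen by name and by level, as protein-coding genes with a symbol made of Zfp and a number, and a gene was counted as expressed where its level reached 1 FPKM (fragments per kilobase of gene, scaled to the library's total) in at least 3 of 6 libraries. Of 349 such rows in the deposited table, all but 1 further row of that name form, 223 (63.9%) were expressed and 126 were not. They were 223 of 10311 expressed genes and of 19877 genes in all.

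Cells with a hairpin against Ifit1 (KD, 3 libraries) were compared with cells with a scrambled hairpin (Scrambled, 3 libraries). Both groups are labelled wild type in genotype, and each of 3 batches held 1 KD and 1 Scrambled library. ADSC is the usual short form for stromal stem cells taken from fat, and the labels do not spell it out. The labels name no age, strain, number of animals, hairpin sequence or clone. Nor do they tie the libraries of a group to separate cultures, so each p-value reflects a spread between libraries that may be technical.

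Most Zfp proteins carry C2H2 fingers, small folds held by zinc that read DNA a few bases at a time, and a chain of fingers gives a protein its preferred site. Many also carry a KRAB domain at the front end, which recruits the corepressor TRIM28 and, through it, the histone methyltransferase SETDB1. KRAB zinc finger proteins are best known for silencing transposable elements and for guarding imprinted genes. The name Zfp is a label of form, and a minority of its bearers work on RNA, on ribosomes or in chromosome segregation.

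Ifit1 itself stood at 1.76, 1.48 and 1.51 FPKM in KD libraries 1 to 3 and at 4.90, 3.75 and 4.97 FPKM in Scrambled libraries 1 to 3. All KD libraries lay below all Scrambled ones, with a log2 fold change of −1.27 ± 0.11 (KD over Scrambled, ± standard error, limma adjusted p = 5.71e-05). Between 32.2 and 40.2 M fragments were recovered per KD library and between 37.1 and 40.6 M per Scrambled library. Of 12 stromal markers 11 were expressed, the exception being Nt5e at 0.154 to 0.351 FPKM over all libraries. Of the 11, 7 fell (63.6%, against 31.1% of all expressed genes) and 3 rose (27.3%, against 19.8%), with a median log2 fold change of −0.57. The stromal markers summed to 1710 to 2000 FPKM in KD and 2700 to 3040 FPKM in Scrambled libraries. The largest parts of that sum were Col1a1 (means of 676 FPKM in KD and 1220 FPKM in Scrambled) and Col1a2 (622 and 1060 FPKM), so the sum mainly follows these collagens. The 3 that rose were Alcam, Cd44 and Itgb1. Markers of blood summed to 1.64 to 2.02 FPKM in KD and 1.80 to 2.16 FPKM in Scrambled libraries, nearly all of it Cd68, with Ptprc at most 0.00524 FPKM. Endothelial, epithelial and fat cell markers summed to at most 0.0956, 0.593 and 0.941 FPKM in KD and 0.0800, 1.07 and 1.06 FPKM in Scrambled libraries. The epithelial sums did not overlap, at 0.286 to 0.593 FPKM in KD and 0.918 to 1.07 FPKM in Scrambled libraries. The part of cell makeup in the results below was not tested, and in bulk RNA fewer cells of a type and less RNA per cell cannot be told apart.

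The Zfp genes were expressed at low levels. Their mean level over the 6 libraries ran from 0.969 to 97.2 FPKM with a median of 3.50 FPKM, against a median of 10.7 FPKM over all expressed genes. The median Zfp gene was read from 518 to 686 fragments in a KD library and 638 to 692 in a Scrambled library. Of the 223, 200 reached 1 FPKM in all 6 libraries. At the edge, the 5 genes with exactly 3 libraries at that level averaged 0.979 to 1.12 FPKM, and 11 Zfp rows left out with exactly 2 averaged 0.814 to 0.981 FPKM. Zfp229, Zfp369, Zfp608 and Zfp764 were counted only through their Scrambled libraries, with 0.616 to 0.981 FPKM in KD and 1.07 to 1.58 FPKM in Scrambled libraries. Their difference is set by the rule and is given with no test. No gene was counted only through KD libraries.

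Added up, the 223 genes came to 1252, 1271 and 1278 FPKM in KD libraries 1 to 3 and to 1343, 1333 and 1346 FPKM in Scrambled libraries 1 to 3. With the values as deposited, all KD sums lay below all Scrambled sums, at a ratio of 0.945. Over all genes the FPKM sums averaged 391000 in KD and 379000 in Scrambled libraries, a ratio of 1.03. Of all 349 Zfp rows, 15, 15 and 17 were listed at 0 in KD libraries 1 to 3 and 10, 7 and 7 in Scrambled libraries 1 to 3. No such count over all genes is given beside it.

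A smaller share of Zfp genes than of all expressed genes was called, and with the values as deposited most of the called ones were lower in KD. At an adjusted p under 0.05 (limma on log2 of FPKM plus 0.5, adjusted over all expressed genes), 66 of 223 were called (29.6%), against 51.0% of all expressed genes. Of these 59 fell, where 31.1% of all expressed genes did, and 7 rose, where 19.8% did, but under quantile normalization the split was 23 lower and 32 higher (21.9% and 24.1% of all expressed genes). The other 157 were not called, which does not show that they were alike in both groups. Among the 59 are 3 of the 4 genes counted only through Scrambled libraries. At an unadjusted p under 0.05 there were 86. Among the 200 genes expressed in all 6 libraries, 50 fell, 7 rose and 143 were not called. Without Scrambled library 3, 39 of the 223 fell, as did 2659 of all 10311 expressed genes. Without KD library 2, 4 rose, as did 1750 of all expressed genes.

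No Zfp gene changed 2-fold. The log2 fold changes ran from −0.61 to 0.44, 174 of them negative and 49 positive. Their median was −0.10, against −0.05 over all expressed genes, and it was positive under quantile normalization (0.05), with the level trend removed by cyclic loess (0.03) and with trends of level, length and GC removed (0.04). A change of at least 0.5 on the log2 scale was seen for 7 Zfp genes (3.14%), 1 of them Zfp608, whose difference the rule sets, and for 8.30% of expressed genes. Libraries of KD and Scrambled did not overlap for 105 Zfp genes (47.1%), against 61.1% of all expressed genes. KD lay below for 95 of these (42.6% of the Zfp genes, against 37.3% of all expressed genes) and above for 10 (4.48%, against 23.8%). Within batches 1, 2 and 3 the Zfp median was −0.12, −0.10 and −0.10 (all expressed genes −0.06, −0.05 and −0.03). In all 3 batches 119 Zfp genes were lower in KD (53.4%, against 43.9% of all expressed genes) and 19 were higher (8.52%, against 28.7%), while 85 were mixed (38.1%, against 27.4%).

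**Figure D1:**
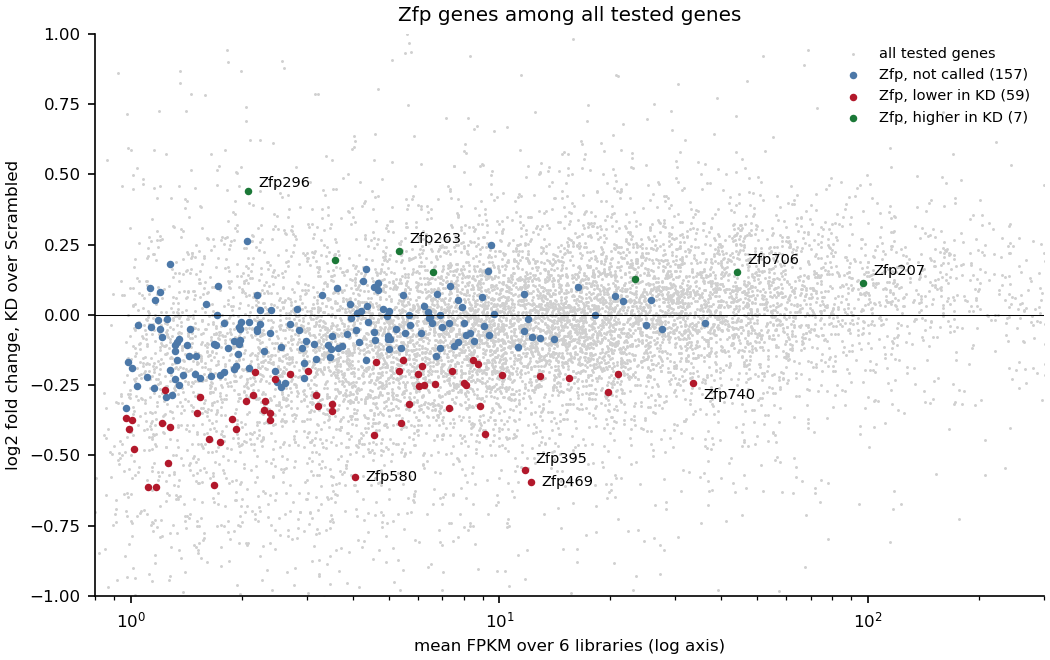
Log2 fold change (KD over Scrambled, y axis) against mean FPKM over the 6 libraries (log axis), with all expressed genes in grey and Zfp genes in colour by call. Most Zfp genes sit left of the median of 10.7 FPKM and 174 of 223 lie below 0 as deposited, while under quantile normalization, cyclic loess and the removal of level, length and GC trends their median lies above 0; genes beyond the axes are not drawn.

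Set beside other protein-coding genes of like level, the Zfp genes had a median close to theirs and a smaller share of calls. Under 2 FPKM the median was −0.18 for 69 Zfp genes and −0.21 for 923 other genes, and 24.6% against 49.6% were called. Those 69 include the 4 genes counted only through Scrambled libraries, 3 of them called lower. From 2 to 5 FPKM the median was −0.09 for 74 Zfp genes and −0.14 for 1747 others, with 25.7% and 48.2% called. From 5 to 10 FPKM it was −0.07 for 54 Zfp genes and −0.07 for 1907 others, with 35.2% and 47.3% called. At 10 FPKM and over it was −0.05 for 26 Zfp genes and 0.01 for 5304 others, with 42.3% and 54.7% called. The calls in that class were 30.8% lower and 11.5% higher for Zfp genes, and 25.1% lower and 29.6% higher for other genes, as deposited. The class has no upper bound, and its median level was 17.2 FPKM for Zfp genes and 26.4 FPKM for others, so level is less well matched there. The standard errors were alike in each class, for example 0.093 for Zfp genes and 0.099 for others under 2 FPKM, while the median size of the change was smaller for Zfp genes (0.18 and 0.27). Averaged over the Zfp genes, the distance to the class median of other genes was 0.007 on the log2 scale, with 0.0099, 0.020 and 0.0055 within batches 1, 2 and 3. It turned to −0.0068 at a mean of at least 3 FPKM. Over all 349 Zfp rows without the filter it was −0.065. There the class under 2 FPKM also held every other gene below the filter, so level was not matched in it. These shares carry no test, since the genes were chosen as a group with earlier results known.

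**Figure D2:**
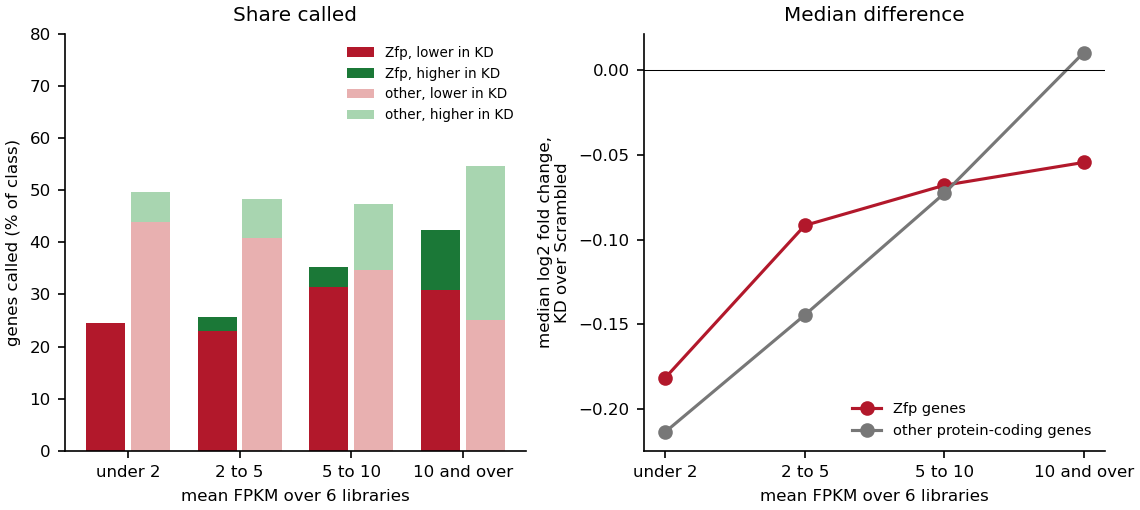
Left, share of genes called lower (red) and higher (green) in KD, in percent, in 4 classes of mean FPKM, for Zfp genes (dark) and other protein-coding genes (pale); right, the median log2 fold change of both in the same classes. In each class a smaller share of Zfp genes was called, from 24.6% against 49.6% under 2 FPKM to 42.3% against 54.7% at 10 FPKM and over; this is the split as deposited, and quantile normalization gives 23 lower and 32 higher Zfp genes.

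The largest falls that did not rest on levels near the limit of 1 FPKM were those of Zfp469, Zfp395 and Zfp580. Zfp469, whose human counterpart is mutated in brittle cornea syndrome, has in GENCODE M21 a long noncoding RNA model on the plus strand of chromosome 8, from 122269569 to 122272650 (GRCm38). That span of 3082 bases is not the gene model behind the deposited values, which imply a length of 18432 bases. The implied length exceeds the GENCODE span for 6 Zfp genes, the others being Zfp281, Zfp526, Zfp57, Zfp687 and Zfp830. The GC used in the trend removal came from GENCODE transcripts, which may not suit these genes. Zfp469 stood at 8.909, 10.002 and 9.975 FPKM in KD libraries 1 to 3 and at 14.0, 15.1 and 15.2 FPKM in Scrambled libraries 1 to 3. The highest KD library was below the lowest Scrambled one, at a log2 fold change of −0.59 ± 0.06 (limma adjusted p = 9.18e-05). The log2 difference inside each batch, 1 to 3, was −0.62, −0.57 and −0.58.

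Zfp395 lies on chromosome 14 (65358389 to 65398930, plus strand), and its human counterpart is known to bind the huntingtin promoter. It stood at 9.11, 9.84 and 9.24 FPKM in KD and at 13.8, 13.8 and 14.4 FPKM in Scrambled libraries 1 to 3. The groups were far apart for their spread, at 9.40 ± 0.392 and 14.0 ± 0.339 FPKM (SD, n = 3 each), with a log2 fold change of −0.55 ± 0.04 (limma adjusted p = 4.86e-05). Zfp580 (chromosome 7, 5051538 to 5053723, plus strand) stood at 3.56, 2.94 and 2.96 FPKM in KD and at 4.96, 4.75 and 5.10 FPKM in Scrambled libraries 1 to 3. Every KD library was below every Scrambled one, at a log2 fold change of −0.58 ± 0.08 (limma adjusted p = 0.000412).

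The other large falls were of genes with few fragments. Zfp383, a KRAB gene on chromosome 7 (29908223 to 29916813, plus strand), stood at 1.31, 1.01 and 1.38 FPKM in KD and at 2.12, 1.85 and 2.43 FPKM in Scrambled libraries 1 to 3 (log2 fold change −0.60 ± 0.11, limma adjusted p = 0.00248). Zfp575 stood at 0.729, 0.707 and 1.01 FPKM in KD and at 1.58, 1.16 and 1.83 FPKM in Scrambled libraries 1 to 3 (−0.61 ± 0.14, adjusted p = 0.00696). The groups did not overlap for either gene, and the call of Zfp575 was lost under quantile normalization (−0.33, adjusted p = 0.0798) and with level, length and GC trends removed (−0.25, adjusted p = 0.141). Zfp963 stood at 0.888, 0.886 and 1.05 FPKM in KD and at 1.55, 1.66 and 1.53 FPKM in Scrambled libraries 1 to 3 (−0.53 ± 0.09, adjusted p = 0.00128). Of its transcript, 39.4% of windows of 50 bases also occur in transcripts of other genes, so its fragments may be shared between copies. For Zfp575 and Zfp963 only KD library 3 reached 1 FPKM. Neither would be counted without its Scrambled libraries, so the rule favours their falls and the p-values carry that limit.

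The 7 rises were smaller. Zfp296, a partner of Klf4 in the reprogramming of mouse cells, stood at 2.36, 2.39 and 2.64 FPKM in KD and at 1.55, 2.11 and 1.45 FPKM in Scrambled libraries 1 to 3. Every KD library lay above every Scrambled one, with Scrambled library 2 closest, at a log2 fold change of 0.44 ± 0.11 (limma adjusted p = 0.0113). The call was lost without the filter on low genes (adjusted p = 0.0537). Zfp263 (chromosome 16, 3744093 to 3750790, plus strand) stood at 5.66, 5.93 and 5.77 FPKM in KD and at 4.78, 4.68 and 5.16 FPKM in Scrambled libraries 1 to 3 (0.23 ± 0.05, adjusted p = 0.00787). Zfp706, a small protein that restrains Klf4 in mouse embryonic stem cells, stood at 46.5, 46.3 and 46.4 FPKM in KD and at 42.6, 41.3 and 41.1 FPKM in Scrambled libraries 1 to 3 (0.15 ± 0.03, adjusted p = 0.00268). Its KD libraries were nearly identical and all above the Scrambled ones.

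Zfp207, also called BuGZ, which binds Bub3 and helps chromosomes attach to the spindle, had the highest level of all Zfp genes. It stood at 98.2, 103 and 102 FPKM in KD and at 94.3, 94.8 and 91.2 FPKM in Scrambled libraries 1 to 3. The groups did not overlap, at a log2 fold change of 0.11 ± 0.03 (limma adjusted p = 0.0132). Its call was lost under 5 of 18 alternatives, TPM and quantile normalization among them. The others that rose were Zfp622 (0.13 ± 0.04, adjusted p = 0.0230), Zfp524 (0.20 ± 0.07, adjusted p = 0.0424) and Zfp692 (0.15 ± 0.06, adjusted p = 0.0477). Their calls were lost under 5, 8 and 9 of 18 alternatives in that order, which for Zfp692 include batch as a term (adjusted p = 0.0646). Zfp524 shares 45.0% of its windows with other transcripts.

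A changed call under other settings was common. Of the 66 called genes, 21 kept their call under every alternative run for them, 19 of them lower and 2 higher (Zfp706 and Zfp263). For 5 of the 21 (Zfp120, Zfp189, Zfp383, Zfp608 and Zfp963) the alternative with a mean of at least 3 FPKM leaves the gene out. Without Zfp608, whose difference the rule sets, 18 lower ones remain. Zfp469, Zfp395, Zfp580, Zfp383 and Zfp963 were among these 18, though Zfp963 was counted largely through its Scrambled libraries. The remaining lower ones included Zfp9, a KRAB gene at 7.99, 7.71 and 7.68 FPKM in KD and 9.62, 9.88 and 10.1 FPKM in Scrambled libraries 1 to 3 (−0.32 ± 0.04, limma adjusted p = 0.000443), named here after its values were seen. Of the 59 that fell, 23 were still lower under quantile normalization, 29 under cyclic loess and 38 under median centring, and none was called higher there. Of the 7 that rose, 6, 6 and 7 were still higher.

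The split between lower and higher calls moved with the scaling, for the Zfp genes and for all expressed genes (whose shares follow in parentheses). Rescaled to TPM, 83 Zfp genes were lower and 3 higher (39.1% and 14.9%), and with limma-voom on recovered fragments 70 were lower and 5 higher (32.1% and 20.4%). With batch as a term, 58 were lower and 8 higher (30.8% and 19.9%). Median centring gave 38 lower and 18 higher (22.2% and 29.1%), and cyclic loess, which removes the trend with level, gave 29 and 22 (24.1% and 22.0%). With trends of level, length and GC removed, 24 were lower and 28 higher (22.7% and 24.6%). Among 121 Zfp genes with a mean of at least 3 FPKM, 33 fell and 6 rose (29.6% and 22.8%).

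Of 11 expressed Zfp genes listed under RNA and ribosomes, 2 rose (18.2%, against 19.8% of all expressed genes), 1 fell (9.09%, against 31.1%) and 8 were not called, with a median log2 fold change of −0.01. Those that rose were Zfp622 and Zfp207, whose role given above is at the spindle, and Zfp36 fell. But as TPM none was higher and 2 were lower, and under median centring 4 were higher and none lower. Zfp622, whose yeast relative Rei1 helps finish the large ribosomal subunit, stood at 24.0, 25.4 and 23.6 FPKM in KD and at 21.7, 22.6 and 22.3 FPKM in Scrambled libraries 1 to 3. Zfp593, related to yeast Bud20, another factor of that subunit, stood at 11.2, 10.1 and 9.58 FPKM in KD and at 10.3, 8.21 and 7.45 FPKM in Scrambled libraries 1 to 3. The groups overlapped, but KD was above Scrambled in each batch by 0.11, 0.29 and 0.34 on the log2 scale. Zfp593 was not called as deposited (0.25 ± 0.10, limma adjusted p = 0.0749). It was called higher under 6 of 18 alternatives, among them batch as a term (adjusted p = 0.0100) and quantile normalization (adjusted p = 0.0409). Zfp598, the ubiquitin ligase that marks collided ribosomes, stood at 26.0, 26.6 and 26.0 FPKM in KD and at 25.5, 25.1 and 25.2 FPKM in Scrambled libraries 1 to 3 (0.05 ± 0.03, adjusted p = 0.190). Its KD libraries were all higher, and it was called higher under median centring (adjusted p = 0.0138) and with level, length and GC trends removed (adjusted p = 0.0349).

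Zfp36, tristetraprolin, which binds AU-rich elements and speeds the decay of mRNAs, stood at 13.2, 15.7 and 13.6 FPKM in KD and at 15.6, 16.5 and 17.8 FPKM in Scrambled libraries 1 to 3. KD library 2 was above Scrambled library 1, so the groups overlapped, and the fall of −0.22 ± 0.07 (limma adjusted p = 0.0267) lost its call under 8 of 18 alternatives. Zfp106, an RNA-binding protein of high level, stood at 35.9, 36.2 and 34.9 FPKM in KD and at 36.0, 36.8 and 36.4 FPKM in Scrambled libraries 1 to 3 (−0.03 ± 0.03, adjusted p = 0.460). Zfp346, Zfp326, Zfp330, Zfp638 and Zfp830 had log2 fold changes between −0.09 and 0.00, and none was called except Zfp638, lower as TPM (adjusted p = 0.0195).

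Of the factors tied to fat and mesenchymal fate, 3 of 4 expressed fell, a set too small to read against the 31.1% of all expressed genes that fell. Under quantile normalization 1 of the 4 was lower. Zfp467, Zfp521 and Zfp407 were under the limit and not tested. Zfp516, which activates Ucp1 in brown fat, stood at 2.06, 2.07 and 1.98 FPKM in KD and at 2.85, 2.64 and 2.71 FPKM in Scrambled libraries 1 to 3 (log2 fold change −0.35 ± 0.06, limma adjusted p = 0.00231). Zfp217, a corepressor partner that acts as an oncogene in human breast cancer, stood at 3.16, 3.04 and 3.04 FPKM in KD and at 4.03, 4.01 and 3.84 FPKM in Scrambled libraries 1 to 3 (−0.32 ± 0.06, adjusted p = 0.00178). Both sets of libraries were well apart, though both calls were lost under quantile normalization (adjusted p = 0.0641 for Zfp516 and 0.0567 for Zfp217) and that of Zfp516 also under cyclic loess (adjusted p = 0.0514). Zfp503 and Zfp703 are a related pair of corepressors. Zfp503 stood at 19.3, 19.1 and 19.6 FPKM in KD and at 22.6, 21.5 and 23.3 FPKM in Scrambled libraries 1 to 3 (−0.21 ± 0.04, adjusted p = 0.00244). Zfp703 stood at 9.57, 9.07 and 8.17 FPKM in KD and at 9.70, 9.19 and 8.66 FPKM in Scrambled libraries 1 to 3, with overlapping groups (−0.04 ± 0.07, adjusted p = 0.653). The difference between the pair was not tested.

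Among general and pluripotency promoter factors 4 of 13 expressed fell (30.8%, against 31.1% of all expressed genes) and none rose (against 19.8%), and Zfp42 was under the limit. The split moved with the scaling, to 3 lower and 3 higher (Zfp143, Zfp335 and Zfp384) under quantile normalization and 2 lower and 2 higher (Zfp335 and Zfp384) with level, length and GC trends removed. The set's median log2 fold change was −0.03. Zfp281 and Zfp148 bind like GC-rich promoter sites. Zfp281 stood at 6.21, 5.96 and 6.04 FPKM in KD and at 7.14, 7.54 and 7.19 FPKM in Scrambled libraries 1 to 3 (−0.25 ± 0.05, limma adjusted p = 0.00262), and Zfp148 at 7.06, 7.31 and 7.24 FPKM in KD and 7.54, 7.31 and 7.22 FPKM in Scrambled libraries (−0.03 ± 0.04, adjusted p = 0.614). Zfp532, Zfp592 and Zfp687 belong to the complex around the chromatin reader Zmynd8. Of these, Zfp532 fell to 3.56, 3.77 and 4.12 FPKM in KD libraries, against 5.25, 5.07 and 5.60 FPKM in Scrambled libraries (−0.43 ± 0.07, adjusted p = 0.000883). Zfp687 fell to 5.49, 5.24 and 5.66 FPKM in KD, against 6.62, 6.57 and 6.64 FPKM in Scrambled libraries (−0.25 ± 0.05, adjusted p = 0.00263), a call lost with level, length and GC trends removed (−0.11, adjusted p = 0.0825). Zfp592 averaged 6.42 ± 0.313 FPKM in KD and 6.37 ± 0.248 FPKM in Scrambled libraries (SD, n = 3 each), with a log2 fold change of 0.01 ± 0.05 (adjusted p = 0.882). Zfp219, a partner of Sox9 in cartilage, was the fourth that fell (−0.29 ± 0.06, adjusted p = 0.00566), and lost its call under 3 of 18 alternatives (quantile normalization, cyclic loess and trend removal).

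**Figure D3:**
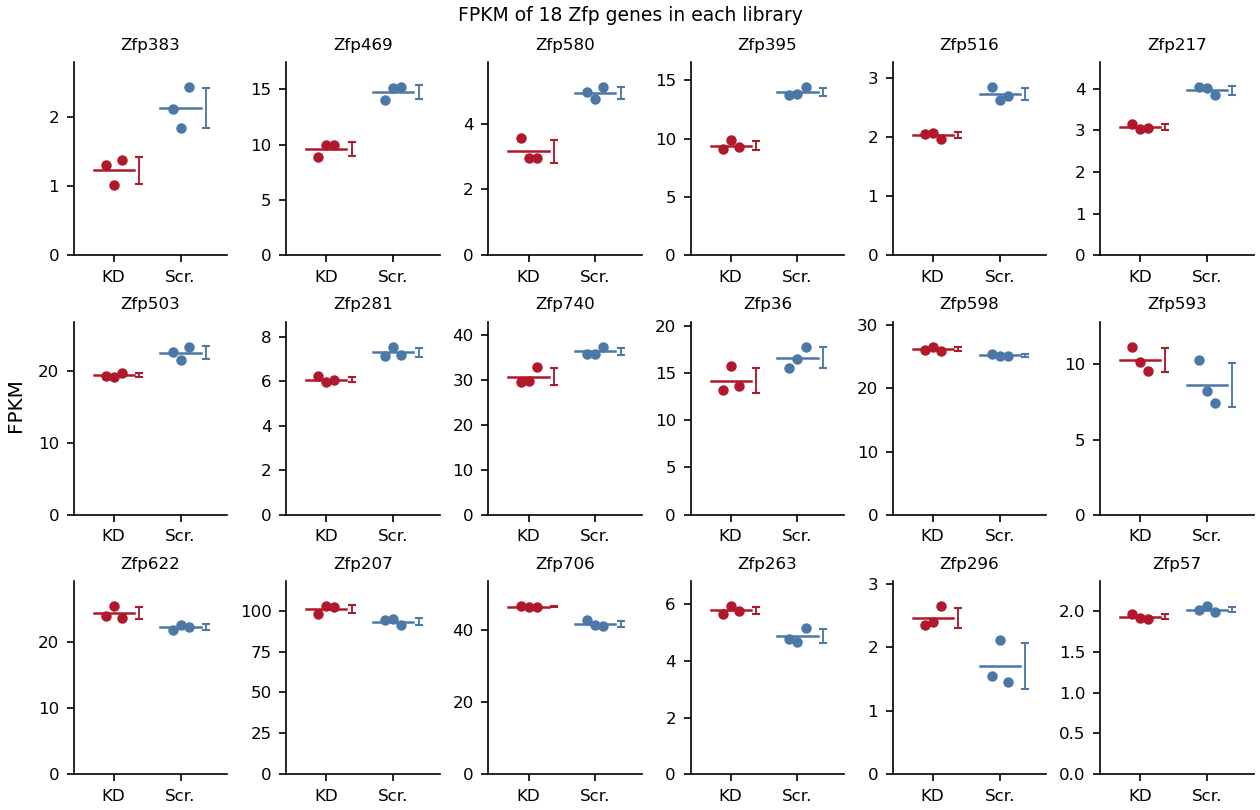
Level of 18 Zfp genes in each library (FPKM, y axis from 0 in each panel), with KD libraries in red on the left, Scrambled libraries (Scr.) in blue on the right, the mean as a line and the SD over 3 libraries as a bar. Zfp469 and Zfp395 are lower in all 3 KD libraries (means of 9.63 and 9.40 FPKM, against 14.8 and 14.0 FPKM in Scrambled), while Zfp706 is higher at 46.3 to 46.5 FPKM, against 41.1 to 42.6 FPKM in Scrambled.

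Outside these sets, Zfp110, an interactor of the p75 neurotrophin receptor, stood at 2.96, 3.03 and 3.13 FPKM in KD and at 3.80, 3.92 and 4.25 FPKM in Scrambled libraries 1 to 3 (log2 fold change −0.34 ± 0.06, limma adjusted p = 0.00203). Its relative Zfp369 is among the 4 genes counted only through Scrambled libraries. Zfp740, among the 5 Zfp genes of highest level, stood at 29.5, 29.7 and 32.9 FPKM in KD and at 35.8, 35.8 and 37.3 FPKM in Scrambled libraries 1 to 3 (−0.24 ± 0.05, adjusted p = 0.00278). KD library 3 was higher than the others but still under every Scrambled one. Zfp664, also among those 5, was not called (−0.05 ± 0.04, adjusted p = 0.317). Zfp365 (−0.18 ± 0.05, adjusted p = 0.0210) and Zfp292 (−0.25 ± 0.08, adjusted p = 0.0284) also fell, and lost their calls under 7 and 8 of 18 alternatives. Zfp746, Zfp367 and Zfp276 were not called as deposited, and Zfp827 was under the limit. As TPM, Zfp746 (−0.14, adjusted p = 0.0318) and Zfp367 (−0.13, adjusted p = 0.0339) were lower. Zfp276 was higher under quantile normalization (0.19, adjusted p = 0.0220), cyclic loess (0.17, adjusted p = 0.0295) and trend removal (0.23, adjusted p = 0.00630). Of the pair that handles ubiquitin and SUMO, Zfp91 (0.07 ± 0.04, adjusted p = 0.222) and Zfp451 (−0.07 ± 0.05, adjusted p = 0.305) were not called, except Zfp91 as higher under median centring (adjusted p = 0.0357).

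KRAB genes had the smallest share of calls among the protein classes, and with the values as deposited all these calls were lower. A KRAB match was found in 104 proteins translated from GENCODE M21, C2H2 fingers without KRAB in 101, and at most 1 C2H2 finger in 16, while 2 genes had no coding model. Of 104 KRAB genes 20 fell (19.2%, against 31.1% of all expressed genes) and 0 rose (against 19.8%), but under quantile normalization 6 were lower and 11 higher (all expressed genes 21.9% and 24.1%). Without Scrambled library 3 or KD library 1, 11 KRAB genes fell, beside 2659 and 2713 of all 10311 expressed genes. Of 101 genes with fingers but no KRAB, 32 fell (31.7%) and 6 rose (5.94%), or 13 and 18 under quantile normalization. Of the 16 with few fingers 6 fell, among them Zfp608, and 1 rose. The differences of Zfp608, and of Zfp229 and Zfp764 among the falls of the other classes, are set by the rule. KRAB genes were lower in level, with a median of 2.12 FPKM against 5.41 FPKM for the genes with fingers but no KRAB, and their transcripts were lower in GC (median 41.5% and 50.7%). By level class, 9 of 48, 6 of 42, 4 of 12 and 1 of 2 KRAB genes were called, from under 2 FPKM upwards, against 6 of 19, 13 of 28, 14 of 39 and 5 of 15 genes with fingers and no KRAB. The median log2 fold change was −0.11 for KRAB genes and −0.08 for those with fingers and no KRAB. No test of the difference between these classes was run.

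**Figure D4:**
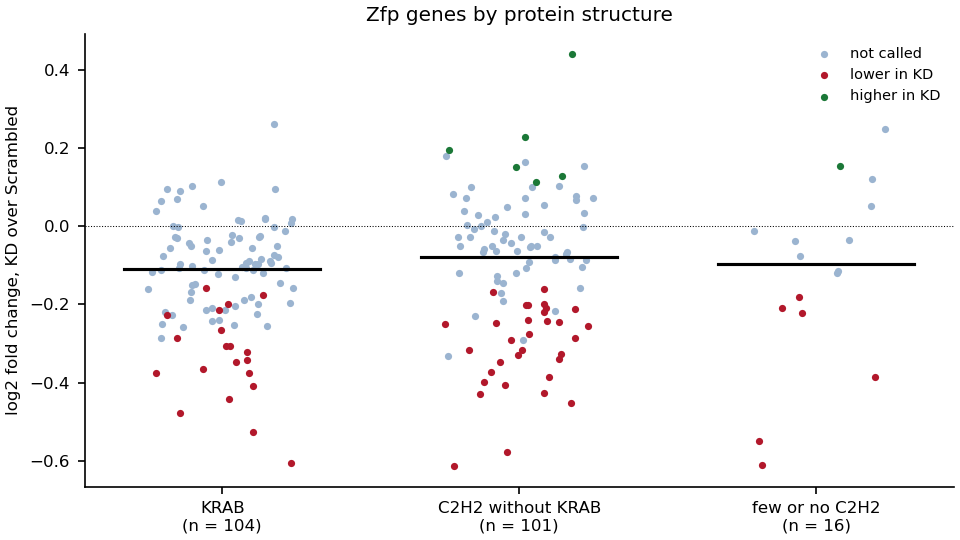
Log2 fold change (KD over Scrambled) of each Zfp gene by protein class, with called genes in red (lower) and green (higher) and the class medians as lines. Medians were −0.11 for 104 KRAB genes, −0.08 for 101 genes with C2H2 fingers and no KRAB and −0.10 for 16 with few fingers as deposited, and the median of all Zfp genes turns positive (0.05) under quantile normalization.

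Of KRAB proteins with known targets, none of 4 expressed was called as deposited, and Zfp708 was under the limit. Zfp57, which keeps methylation at imprinted regions, stood at 1.96, 1.92 and 1.91 FPKM in KD and at 2.01, 2.06 and 1.99 FPKM in Scrambled libraries 1 to 3 (log2 fold change −0.05 ± 0.07, limma adjusted p = 0.537). The KD libraries were all lower, by less than the test could call. Zfp568, which represses a placental Igf2 transcript (0.11 ± 0.08, adjusted p = 0.252), Zfp809, which silences retroviruses (−0.12 ± 0.08, adjusted p = 0.235), and Zfp932 (−0.05 ± 0.12, adjusted p = 0.741) had overlapping groups. Zfp932 shares over 20% of its windows with other transcripts. Zfp568 was called higher under quantile normalization (0.25, adjusted p = 0.0349) and with level, length and GC trends removed (0.23, adjusted p = 0.0457). Zfp445, which acts with Zfp57 on imprints and is named after its values were seen, stood at 8.09, 8.28 and 8.22 FPKM in KD and at 9.30, 9.35 and 9.31 FPKM in Scrambled libraries 1 to 3. That was a fall of −0.18 ± 0.04 (adjusted p = 0.00609), lost under 1 of 18 alternatives.

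Of 25 expressed silencing partners of KRAB proteins, 8 fell (32.0%, against 31.1% of all expressed genes) and 3 rose (19.8% of all expressed genes did), with a median log2 fold change of −0.07, and under median centring 3 fell and 6 rose. Without Scrambled library 1 or 2, 5 fell, beside 2626 and 2784 of all 10311 expressed genes. Trim28, the corepressor that KRAB domains bind, stood at 158.8, 157.3 and 157.7 FPKM in KD and at 145.6, 149.6 and 145.1 FPKM in Scrambled libraries 1 to 3 (0.11 ± 0.03, limma adjusted p = 0.00776). Setdb1, the methyltransferase, averaged 21.0 ± 0.181 FPKM in KD and 22.5 ± 0.419 FPKM in Scrambled libraries (SD, n = 3 each; −0.10 ± 0.03, adjusted p = 0.0389). Resf1, which supports Setdb1 at retroviruses (−0.39 ± 0.05, adjusted p = 0.000445), and Dnmt3a, a DNA methyltransferase (−0.42 ± 0.07, adjusted p = 0.00166), fell more than any other listed partner. Zinc finger genes under other names, 16 of them Zfp symbols with letters after the number, gave 22 lower (27.8%) and 6 higher (7.59%) of 79 expressed. All expressed genes gave 31.1% and 19.8%, and under quantile normalization the 79 gave 11 lower and 18 higher. Among the 22 is Zfp354a, counted only through its Scrambled libraries (0.609 to 0.683 FPKM in KD and 1.03 to 1.08 FPKM in Scrambled). Without Scrambled library 3, 14 of the 79 were lower, beside 2659 of all 10311 expressed genes. Of 11 Klf genes, 2 fell and 4 rose.

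Many Zfp genes lie side by side. Chromosome 7 holds 53 of them, chromosome 17 holds 29 and chromosome 8 holds 17. In 32 runs, 77 genes have another expressed Zfp gene as the next protein-coding gene, and the longest run on chromosome 6 has 6 (Zfp398, Zfp282, Zfp212, Zfp956, Zfp777 and Zfp746), of which 1, Zfp212, was called (−0.16 ± 0.05, limma adjusted p = 0.0193, lost under 7 of 18 alternatives). Of 45 neighbouring pairs, 4 had both genes lower (Zfp27 with Zfp383, Zfp260 with Zfp382, Zfp229 with Zfp820 and Zfp236 with Zfp516), 14 had 1 lower, and 27 had neither. Of the 4, 1 holds Zfp229, whose difference the rule sets, and Zfp27 lost its call with batch as a term (adjusted p = 0.0586). Singly, 26.5% of the Zfp genes and 31.1% of all expressed genes fell, and a link between neighbours was not tested. Neighbours could differ in sign. On chromosome 7, Zfp566 stood at 2.42, 2.15 and 2.30 FPKM in KD and 2.21, 1.64 and 1.66 FPKM in Scrambled libraries 1 to 3 (0.26 ± 0.10, adjusted p = 0.0597, and 0.0345 with batch as a term), beside Zfp260 at 6.90, 7.71 and 8.57 FPKM in KD and 11.1, 10.1 and 10.3 FPKM in Scrambled libraries (−0.43 ± 0.07, adjusted p = 0.00169).

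A feature that the choice of genes did not use is a promoter motif. RefSeq promoter windows of GRCm38.p6 (250 bases before to 50 after the gene start) exist for 179 of the 223 genes, 223 windows in all. The motif of Zfp143, an activator of promoters also called Staf, was searched on both strands as ACTACA, 3 free bases and CCC, and occurred in 28 Zfp windows (12.6%) and in 2.09% of 32851 windows of all genes. A site whose free bases are CGT would also hold the hypoxia core given below. The Zfp windows were richer in GC (median 56.7% and 52.7%) and held more CpG (17 and 7 per window), and no test was made of the share. Printed next are the 8 sites of called genes, with the motif in capitals and 20 bases on either side, to show the site that genes with opposite calls have in common.

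Zfp692, higher, chr11:58307001-58307052 (plus strand): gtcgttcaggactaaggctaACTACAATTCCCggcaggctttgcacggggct

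Zfp383, lower, chr7:29908456-29908507 (plus strand): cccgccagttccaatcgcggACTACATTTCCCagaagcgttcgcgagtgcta

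Zfp189, lower, chr4:49521134-49521185 (minus strand): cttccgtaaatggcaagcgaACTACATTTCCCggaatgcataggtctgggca

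Zfp260, lower, chr7:30095027-30095078 (minus strand): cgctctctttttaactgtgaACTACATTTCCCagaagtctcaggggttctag

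Zfp940, lower, chr7:29853654-29853705 (plus strand): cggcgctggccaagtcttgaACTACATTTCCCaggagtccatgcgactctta

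Zfp444, lower, chr7:6172353-6172404 (minus strand): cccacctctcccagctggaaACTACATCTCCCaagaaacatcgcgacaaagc

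Zfp219, lower, chr14:52019689-52019740 (plus strand): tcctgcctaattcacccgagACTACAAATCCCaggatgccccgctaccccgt

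Zfp358, lower, chr8:3493093-3493144 (plus strand): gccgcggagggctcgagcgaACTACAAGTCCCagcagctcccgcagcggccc

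The share of genes that fell was alike with and without the motif. Of 28 Zfp genes with it, 19 were KRAB genes, 7 fell (25.0%) and 1 rose, with a median log2 fold change of −0.12. Of 151 genes with a window but without it, 69 were KRAB genes, 39 fell (25.8%) and 4 rose, with a median of −0.09. The motif began between 224 and 7 bases before the gene start. Zfp143 itself stood at 7.66, 8.08 and 7.85 FPKM in KD and at 7.25, 7.46 and 7.96 FPKM in Scrambled libraries 1 to 3, with overlapping groups (0.05 ± 0.05, limma adjusted p = 0.389), and it was called higher under quantile normalization (adjusted p = 0.0448). The interferon response element (GAAA, 2 free bases and GAAA, on both strands) was in 4 Zfp windows (1.79%) and in 3.44% of all windows, and the amino acid response element (TGATGNAA on both strands) in 2 Zfp windows (0.897%) and in 3.97% of all. The core of the hypoxia response element (ACGTG or GCGTG on both strands, forms that overlap each other) was in 125 Zfp windows (56.1%) and in 43.8% of all.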

How the data were processed

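Messenger RNA of 6 libraries was sequenced. The authors deposited 1 table of FPKM per gene and library, and the submitters' processing notes name GRCm38, mm10 and GRCm39 with no role. No source used here names the aligner, counter or strand setting, so antisense or overlapping genes and copies of one sequence may share fragments. Whole fragments were recovered from the FPKM steps (all 19877 genes within 0.002 of a whole number) and used for depth, gene length and limma-voom.

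Genes at 1 FPKM or more in at least 3 of 6 libraries (10311) were compared as log2(FPKM + 0.5) with limma 3.58.1 in R 4.3.3, with a variance trend, two-sided, Benjamini-Hochberg adjusted, threshold 0.05. The added 0.5 shrinks the fold change of low genes. Simulated data with known changes tested the script. Over the Zfp genes the median counting SD was 0.0508 and the median replicate SD 0.0753 (log2). GENCODE M21 gave positions and translated coding sequences. Fingers were counted by pattern, and KRAB required 20 of 41 consensus positions.

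Named are the 8 largest falls and the 7 rises among called genes whose groups did not overlap, the 5 highest genes and role lists, with Zfp608 and Zfp764 among the falls given no test. Members, roles, motifs and lists were chosen with earlier results of these data known. Labels say libraries of 1 number share a batch. Deviations of same-numbered libraries correlated at 0.09, 0.01 and 0.19 over all expressed genes (0.28, 0.08 and 0.15 over the Zfp genes), and batch as a term is an alternative. Other alternatives changed the pseudocount, the filter, the scaling, the model or left out 1 library.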

Additional observations from a re-analysis of the deposited data

How the results depend on the processing

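Depth limits the low genes, and the scaling between libraries limits every direction over the Zfp genes as a group. The cause of each change below was not tested, beyond the fewer genes or libraries a setting leaves.

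The median log2 fold change of the Zfp genes was −0.12 with a pseudocount of 0.1, −0.087 with 1, −0.067 at a mean of at least 3 FPKM, −0.16 as TPM, −0.038 under median centring and −0.12 with limma-voom on recovered fragments. It turned to 0.046 under quantile normalization, 0.026 under cyclic loess and 0.036 with level, length and GC trends removed. The distance to genes of like level was −0.0068 at a mean of at least 3 FPKM and 0.015 under quantile normalization. It was −0.065 without the filter, where the class under 2 FPKM held all genes below the filter and level was not matched.

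Zfp genes called lower numbered 33 at a mean of at least 3 FPKM, 38 under median centring, 23 under quantile normalization, 29 under cyclic loess and 24 with the 3 trends removed. Those called higher numbered 3 as TPM and 18, 32, 22 and 28 under the last 4 settings. KRAB genes called lower numbered 12 without the filter, 6 at a mean of at least 3 FPKM, 34 as TPM and 12, 6, 8 and 8 under the last 4 settings, where 3, 11, 8 and 6 were called higher. Zinc finger genes under other names called lower numbered 14 without the filter, 10 at a mean of at least 3 FPKM and 11 under each of quantile normalization, cyclic loess and trend removal, where 18, 15 and 16 were called higher. Silencing partners numbered 3 lower and 6 higher under median centring.

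With batch as a replicate block, 58 Zfp genes were lower, 8 higher and 1 KRAB gene higher, and 8 calls differed: Zfp446 and Zfp935 became lower, Zfp566 and Zfp593 higher, and Zfp27, Zfp46, Zfp647 and Zfp692 lost their call.

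Leaving out 1 library gave 39 to 55 lower and 4 to 7 higher Zfp genes, medians of −0.11 to −0.095, distances of 0.0034 to 0.012, 11 to 21 lower and 0 to 1 higher KRAB genes, 5 to 8 lower and 3 to 4 higher partners, 14 to 19 lower and 4 to 6 higher genes of other names, 4335 to 5284 called genes in all, and −1.39 to −1.20 for Ifit1.

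Named genes that were not called changed sign, among them Zfp369 (−0.19 as deposited) and Zfp809 (−0.12), which were not near 0. In some alternative, 2 called Zfp genes also changed sign. As TPM, Zfp335 stood at −0.0097, Zfp346 at −0.044 and Zfp592 at −0.033. Under median centring, Zfp106 and Zfp148 stood at 0.037, Zfp326 at 0.053, Zfp330 at 0.031, Zfp410 at 0.038, Zfp451 at 0.0003, Zfp462 at 0.050, Zfp57 at 0.014, Zfp644 at 0.023, Zfp664 at 0.016, Zfp703 at 0.028 and Zfp932 at 0.015. Under quantile normalization, cyclic loess and trend removal, in that order, Zfp148 stood at 0.059, 0.051 and 0.016, Zfp369 at 0.12, 0.050 and 0.052, Zfp410 at 0.066, 0.058 and 0.056, Zfp451 at 0.044, 0.032 and 0.014, Zfp462 at 0.22, 0.21 and 0.16, Zfp57 at 0.14, 0.13 and 0.14, Zfp644 at 0.048, 0.039 and 0.012, Zfp703 at 0.037, 0.026 and 0.097, Zfp809 at 0.042, 0.013 and 0.0052, Zfp830 at 0.057, 0.028 and 0.030, and Zfp932 at 0.17, 0.16 and 0.15. Zfp326 stood at 0.040 and 0.030 under the first 2, and Zfp746 at 0.036 with trends removed. Leaving out 1 library, Zfp346 ran from −0.035 to 0.058, Zfp410 from −0.070 to 0.033, Zfp462 from −0.046 to 0.039, Zfp592 from −0.026 to 0.040, Zfp644 from −0.084 to 0.0087, Zfp703 from −0.086 to 0.022 and Zfp932 from −0.16 to 0.033.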
